A study of Mus musculus with 12 samples.

Results

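Formative and primed pluripotency genes are the genes that mouse pluripotent cells switch on as they leave the naive state of the early epiblast. A set of 10 such genes was followed here: Otx2, Pou3f1, Zic2, Zic5, Sall2, Sox3, Fgf5, Sfrp2, Grhl2 and Tead2. They form a list of names drawn up with earlier results of these data known, and each matched 1 of the 52661 Ensembl genes in the count table. RNA was sequenced from the mouse embryonic stem cell line CGR8, cultured in serum with leukemia inhibitory factor, the cytokine that holds such cells in a naive-like, self-renewing state. All cells carried a stably transfected ppy-cagg-ires-puro vector. The insert was wild-type netrin-1 (netrin-1 WT, n = 3), netrin-1 with point changes labelled unc5B MUT (n = 3) or neo1 MUT (n = 3), or nothing (control, n = 3). Netrin-1 is a secreted guidance protein, and Unc5b and neogenin (Neo1) are among its receptors; the design names the mutants as altered in receptor interaction. The labels do not say whether a line is a clone or a pool, or whether the 3 libraries of a group are separate cultures, so the p-values measure only the spread between these libraries.

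In the embryo, the naive epiblast passes through a formative state before it becomes primed for gastrulation. Otx2 and Pou3f1 (Oct6) are transcription factors that act at the start of the transition, when Pou5f1 (Oct4) moves to new enhancers, and Fgf5 is the classic secreted marker of the post-implantation epiblast. Withdrawal of leukemia inhibitory factor and signalling by fibroblast growth factors through ERK drive it, and cultures in serum are known to hold cells at mixed stages of it.

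The 12 libraries held 22256195 to 59735737 estimated counts, and the 4 libraries with replicate number 3 were the shallowest, at no more than 24736421. Values below are CPM (counts scaled to a fixed library total), with effective library sizes. The Ntn1 transcript itself stood at 288, 223 and 76.9 CPM in netrin-1 WT libraries 1, 2 and 3. It was 219, 201 and 56.4 CPM in neo1 MUT and 322, 204 and 34.9 CPM in unc5B MUT, against 15.4, 9.09 and 0.782 CPM in control. In every group the library numbered 3 was thus the lowest for Ntn1. A set of 6 embryonic stem cell markers summed to 2899 to 3651 CPM over the 12 libraries, with none at 0. Replicate numbers (1, 2 or 3) are from the titles. Between numbers 1 and 2, edgeR with the number as a block called 0 of 21053 genes. The libraries numbered 3 deviated together from their group means and stood far from the others. Each comparison is therefore given both without the replicate number and with it as a block (the paired fit), by edgeR's quasi-likelihood test with Benjamini-Hochberg adjustment over 21053 genes and a threshold of 0.05.

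Of the 10 genes, 9 had enough counts to be tested, and Fgf5 did not. Per kilobase of exon, averaged over the 12 libraries, Tead2 stood highest at 42.4 CPM per kb. Zic2 followed at 12.1, Zic5 at 8.68, Sfrp2 at 7.36 and Otx2 at 4.92 CPM per kb. Pou3f1 was at 2.07, Sox3 at 1.40, Grhl2 at 1.22 and Sall2 at 1.02 CPM per kb, and Fgf5 came last at 0.035 CPM per kb. The ranges over libraries of neighbours in this order overlapped throughout, except that the highest Fgf5 level (0.124 CPM per kb) lay below the lowest Sall2 level (0.175 CPM per kb).

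**Figure D1:**
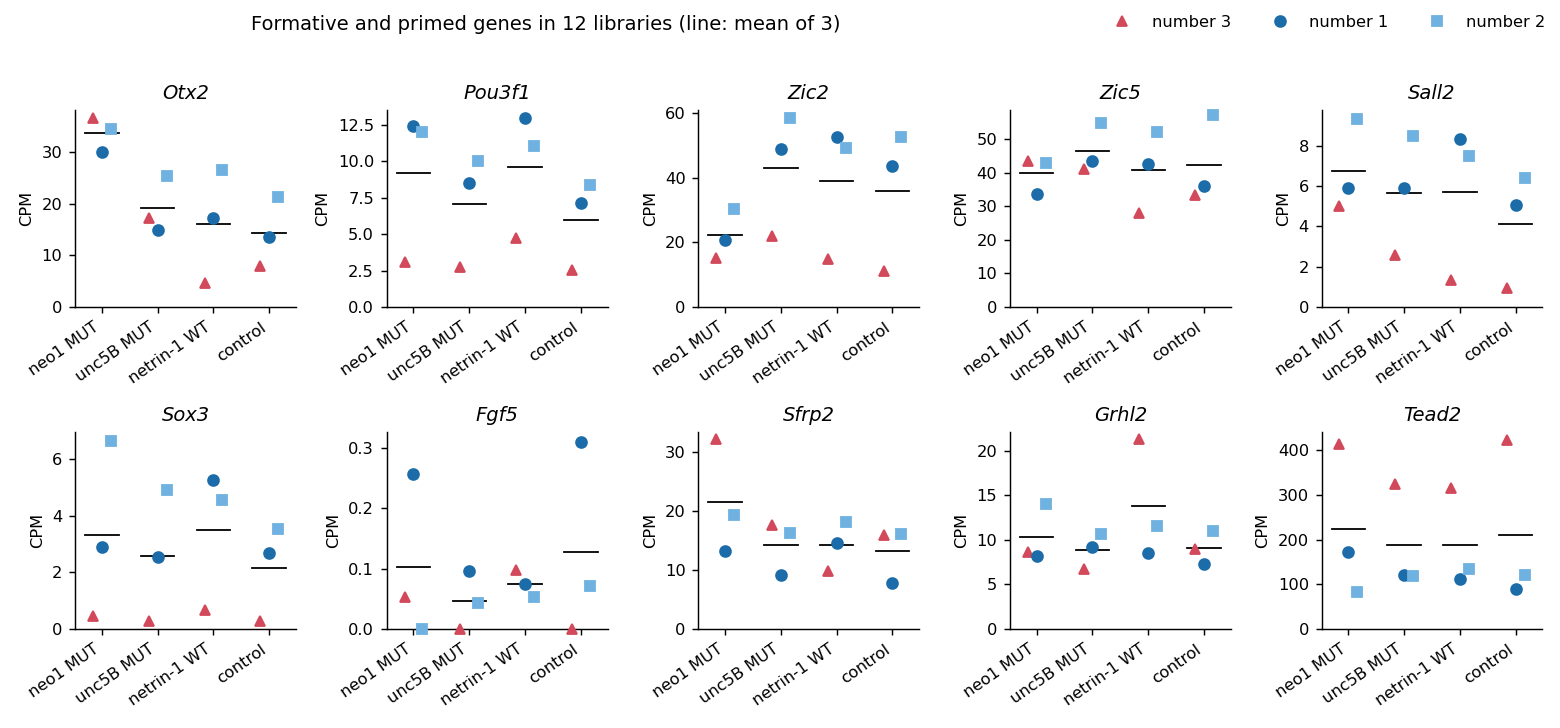
CPM of each of the 10 genes in every library, by group, with replicate numbers as separate symbols (triangles, number 3; circles, number 1; squares, number 2) and a line at the mean of 3 libraries. Otx2 in neo1 MUT lies above all other libraries, and the number 3 libraries lie lowest for Pou3f1, Sall2 and Sox3 and highest for Tead2 in every group.

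None of the 9 tested members of the set was called by edgeR in the 6 group comparisons, with or without the replicate number. For netrin-1 WT against control this was 0 of 9 genes, where 0.0997% of all tested genes were called without the replicate number and 3.5% with it. For unc5B MUT against control it was 0 of 9, where 0% and 0.0285% of all genes were called. For neo1 MUT against control it was 0 of 9, where 0.128% and 5.26% were called. Between the netrin-1 groups it was again 0 of 9 each time: 0% and 1.97% of all genes were called for unc5B MUT against netrin-1 WT, 0.076% and 1.99% for neo1 MUT against netrin-1 WT, and 0.133% and 4.87% for neo1 MUT against unc5B MUT. At these rates of calling, 0 of 9 is close to what the background gives.

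The same genes at an unadjusted p under 0.05 numbered 4 of 9 for neo1 MUT against control in the paired fit (20.2% of all genes), namely Otx2, Pou3f1, Sall2 and Sfrp2. They numbered 2 of 9 for netrin-1 WT against control (18.1% of all genes), which were Pou3f1 and Sox3, and 0 of 9 for unc5B MUT against control (4.7%). Between the netrin-1 groups they were 2 of 9 for neo1 MUT against netrin-1 WT (14.3%), 2 of 9 for neo1 MUT against unc5B MUT (21.1%) and 1 of 9 for unc5B MUT against netrin-1 WT (17.6%). Without the replicate number the only such gene was Otx2 for neo1 MUT against control, where 7.26% of all genes reached it. DESeq2 without the replicate number also called 0 of 9 in all 6 comparisons, where it called 1.56%, 0.0578% and 2.2% of all genes against control for netrin-1 WT, for unc5B MUT and for neo1 MUT. Its shares were 0.877% for unc5B MUT against netrin-1 WT, 1.08% for neo1 MUT against netrin-1 WT and 1.56% for neo1 MUT against unc5B MUT. Unlike the edgeR shares, those of DESeq2 are over the genes that it gave an adjusted p. These were 19043 to 21275 genes by comparison, and 17621 to 19119 in the comparisons named with the replicate block. DESeq2 with the replicate block called 2 of 9 for neo1 MUT against control (11.2% of all genes), 1 of 9 for netrin-1 WT against control (9.93%), 1 of 9 for neo1 MUT against netrin-1 WT (5.94%) and 1 of 9 for neo1 MUT against unc5B MUT (11.9%); these were Otx2, Pou3f1 and Zic2, described in turn below.

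**Figure D2:**
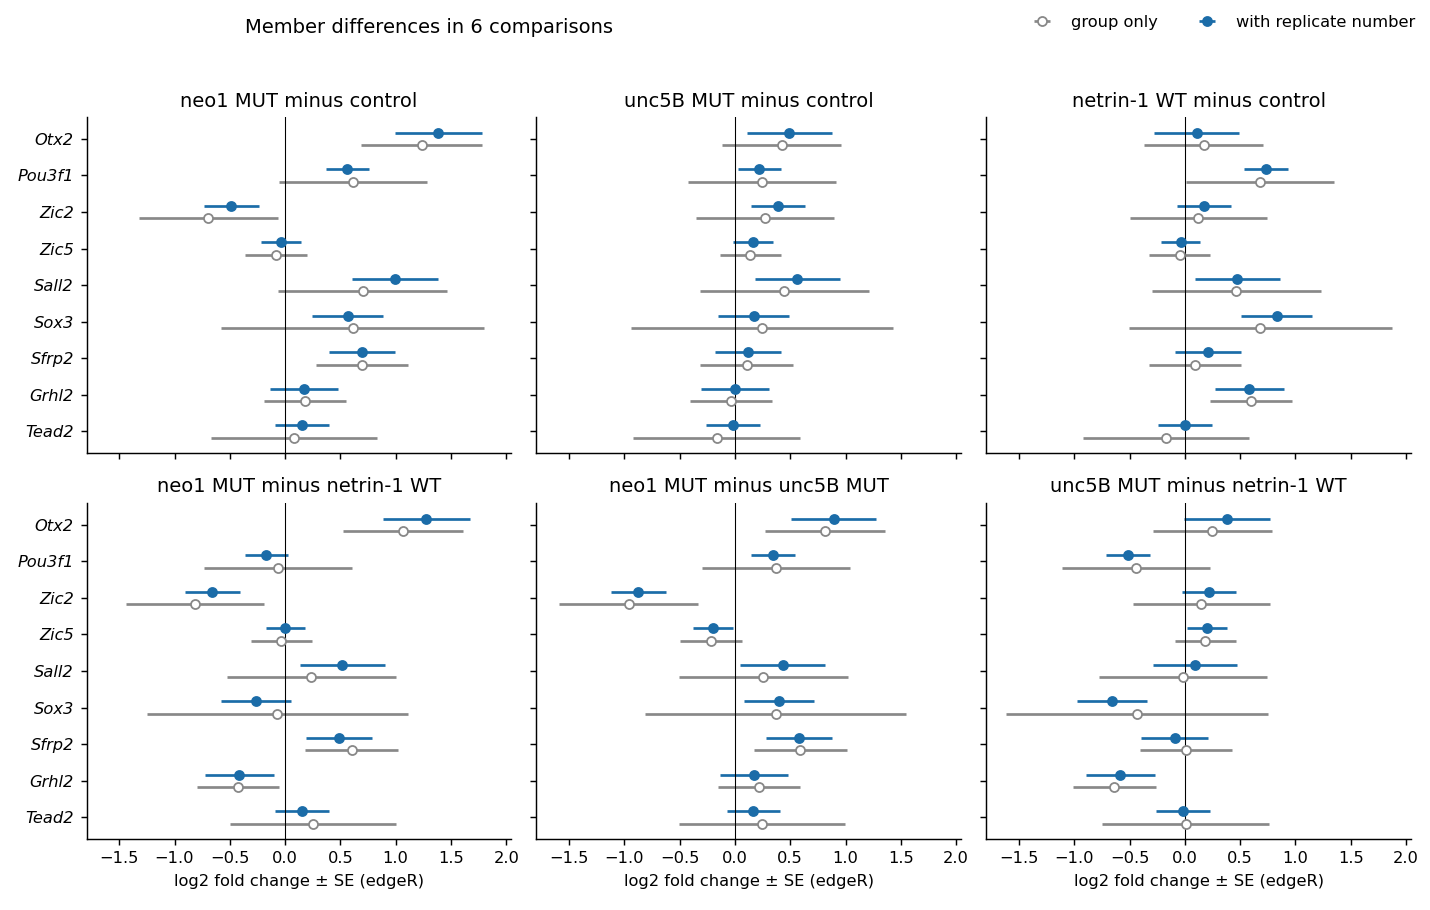
Log2 fold change with its standard error for the 9 tested genes in the 6 comparisons, from edgeR without the replicate number (open grey) and with it (filled blue). Otx2 is to the right of 0 in all 3 panels with neo1 MUT, Zic2 is to the left in the same panels, and the blue bars are shorter in every panel.

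Otx2, a paired-type homeobox factor and an early driver of the formative state, lies on chromosome 14 from 48657677 to 48673819 on the minus strand (GRCm38; ENSMUSG00000021848). The antisense gene Otx2os1 overlaps it but held 62.8 estimated counts over the 12 libraries, beside 9244 for Otx2. The Otx2 level was 30.0, 34.4 and 36.5 CPM in the neo1 MUT libraries numbered 1, 2 and 3. It was 14.8, 25.3 and 17.3 CPM in unc5B MUT, 17.2, 26.4 and 4.60 CPM in netrin-1 WT, and 13.5, 21.3 and 7.99 CPM in control. Every neo1 MUT library thus lay above all 9 libraries of the other groups, which overlapped each other. Groups that did not overlap, with the higher one first, were seen in 5.4% of all genes for neo1 MUT against control, 3.59% against netrin-1 WT and 5.13% against unc5B MUT.

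Mean Otx2 was 33.6 ± 3.29 CPM in neo1 MUT and 14.3 ± 6.70 CPM in control (SD, n = 3 each). The paired log2 fold change was 1.39 ± 0.39 (SE; edgeR adjusted p = 0.0707), and without the replicate number it was 1.24 ± 0.55 (adjusted p = 0.671). Within numbers 1, 2 and 3 the differences were 1.15, 0.69 and 2.18. Against netrin-1 WT the paired log2 fold change was 1.28 ± 0.39 (edgeR adjusted p = 0.157), and against unc5B MUT it was 0.89 ± 0.38 (adjusted p = 0.213). All 3 comparisons use the same neo1 MUT libraries.

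Whether Otx2 passed depended on the tool and on the number 3 libraries. DESeq2 with the replicate block called it for neo1 MUT against control (log2 fold change 1.39, adjusted p = 0.00668) and against netrin-1 WT (1.30, adjusted p = 0.0220). With numbers 1 and 2 alone, the paired edgeR fit called it against control (0.93, adjusted p = 0.0113; 10.5% of all genes) and against unc5B MUT (0.74, adjusted p = 0.0260; 10% of all genes). Leaving out the number 3 library of netrin-1 WT alone gave the same calls in the paired edgeR fit. Adjusted p was 0.0096 against control (8.65% of all genes) and 0.0461 against unc5B MUT (9.23%). No other single library left out gave an Otx2 call in the paired edgeR fit. Over all single libraries left out, adjusted p ran up to 0.2586 against control and 0.6635 against unc5B MUT. In the authors' deposited table the log2 fold change for neo1 MUT against control is 1.18, with an adjusted p of 0.0879. For netrin-1 WT and unc5B MUT against control, the paired log2 fold changes were 0.11 ± 0.38 and 0.49 ± 0.39 (edgeR adjusted p = 0.925 and 0.99985), and the netrin-1 WT differences were 0.35, 0.31 and -0.79 in numbers 1, 2 and 3.

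Sfrp2, a secreted antagonist of Wnt ligands, followed Otx2 most closely among the members. After each number's mean was taken away, the log2 CPM of the pair had a Pearson r of 0.896 over the 12 libraries, which share their depth and scaling. Sfrp2 was at 13.3, 19.3 and 32.2 CPM in neo1 MUT libraries 1, 2 and 3, against 7.88, 16.1 and 15.9 CPM in control. In unc5B MUT it was 9.09, 16.2 and 17.6 CPM, and in netrin-1 WT 14.5, 18.2 and 9.84 CPM. The neo1 MUT libraries were the higher ones in each number against control and unc5B MUT, but the groups overlapped. The paired log2 fold change for neo1 MUT against control was 0.69 ± 0.30 (edgeR adjusted p = 0.222). With single libraries left out it ran from 0.37 to 0.88, with edgeR adjusted p from 0.0459 to 0.6372. The lowest came without netrin-1 WT library 3, where the log2 fold change was 0.67 and 8.65% of all genes were called.

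Promoter windows of 250 bases before a RefSeq transcript start (GRCm38.p6) were at hand for 6 of the 10 genes, 10 windows in all, and none for Pou3f1, Zic2, Sox3 and Grhl2. The windows of Otx2 and Sfrp2 are shown because this pair had the highest correlation among the members and both windows hold the letters bound by OTX factors. The motifs searched, on both strands, were the OTX core GGATTA (reverse TAATCC) and the octamer ATTTGCAT (reverse ATGCAAAT) of POU factors; their matches do not overlap in the windows shown. Capitals mark the matches. The Otx2 window is chr14:48665110-48665359, minus strand, from a set of 4 for this gene, the other 3 of which held no match; the Sfrp2 window is chr3:83766071-83766320, plus strand.
Otx2: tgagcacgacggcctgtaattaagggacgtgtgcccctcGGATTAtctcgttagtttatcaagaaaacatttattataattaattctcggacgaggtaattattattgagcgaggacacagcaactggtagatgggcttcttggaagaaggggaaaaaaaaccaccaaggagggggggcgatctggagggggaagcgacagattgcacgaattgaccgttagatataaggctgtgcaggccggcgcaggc
Sfrp2: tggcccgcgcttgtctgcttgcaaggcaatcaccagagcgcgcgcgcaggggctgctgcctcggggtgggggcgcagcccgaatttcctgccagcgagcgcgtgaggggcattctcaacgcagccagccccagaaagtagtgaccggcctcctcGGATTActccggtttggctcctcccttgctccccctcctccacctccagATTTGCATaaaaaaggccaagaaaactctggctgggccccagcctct
The OTX core was present in 6.25% of the 32851 windows of this length and the octamer in 1.6%. No match was found in the windows of Zic5, Sall2, Fgf5 and Tead2. A match is a description of letters, and no binding was measured here.

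Pou3f1 (Oct6), a POU-domain factor of the formative epiblast and later of neural cells, lies on chromosome 4 from 124656807 to 124660655 on the plus strand (ENSMUSG00000090125). It was at 12.99, 11.1 and 4.75 CPM in netrin-1 WT libraries 1, 2 and 3. It was 12.4, 12.03 and 3.10 CPM in neo1 MUT, 8.51, 10.02 and 2.72 CPM in unc5B MUT, and 7.10, 8.35 and 2.51 CPM in control. In each number the control library was the lowest of the 4, while every group had its lowest library at number 3, so the groups overlapped.

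The paired log2 fold change of Pou3f1 was 0.74 ± 0.20 for netrin-1 WT against control (edgeR adjusted p = 0.0725). Without the replicate number it was 0.68 ± 0.67. For neo1 MUT against control the paired value was 0.56 ± 0.20 (adjusted p = 0.134), and for unc5B MUT it was 0.22 ± 0.20 (adjusted p = 0.99985). Against netrin-1 WT, unc5B MUT differed by -0.51 ± 0.20 in the paired fit (adjusted p = 0.203). DESeq2 with the replicate block called the gene for netrin-1 WT against control (0.72, adjusted p = 0.00527) and for neo1 MUT against control (0.58, adjusted p = 0.0337). The authors' deposited table gives 0.69 with an adjusted p of 0.0405 for netrin-1 WT against control, a call that 4.42% of its genes share, and 0.61 with 0.0595 for neo1 MUT against control. With numbers 1 and 2 alone, the paired edgeR fit called it for netrin-1 WT against control (0.64, adjusted p = 0.0430; 16.3% of all genes).

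Sox3, an X-linked SOXB1 factor of the epiblast and neural plate, varied with Pou3f1, with an r of 0.829 over the 12 libraries after each number's mean was taken away. It was at 5.27, 4.54 and 0.678 CPM in netrin-1 WT, against 2.68, 3.54 and 0.279 CPM in control. In unc5B MUT it was 2.54, 4.90 and 0.272 CPM, and in neo1 MUT 2.88, 6.62 and 0.472 CPM. The netrin-1 WT library was above control in each number, and the number 3 libraries of all groups lay under 1 CPM. Those libraries held only 14 rounded counts in netrin-1 WT, 5 in control, 5 in unc5B MUT and 9 in neo1 MUT. The paired log2 fold change for netrin-1 WT against control was 0.83 ± 0.32 (edgeR adjusted p = 0.199).

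Zic2 and Zic5, zinc-finger factors of the primed epiblast and the neural plate, are divergent neighbours on chromosome 14. Zic5 lies at 122456795 to 122465677 on the minus strand and Zic2 at 122475435 to 122479852 on the plus strand, with 9757 bases between them. Zic2 was at 20.9, 30.2 and 15.2 CPM in neo1 MUT libraries 1, 2 and 3. It was 48.8, 58.5 and 21.8 CPM in unc5B MUT, 52.5, 49.3 and 14.7 CPM in netrin-1 WT and 43.5, 52.5 and 11.1 CPM in control. In numbers 1 and 2 the neo1 MUT library was the lowest of the 4 by a wide margin, and in number 3 it was above the netrin-1 WT and control libraries.

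For neo1 MUT against unc5B MUT the paired log2 fold change of Zic2 was -0.87 ± 0.25 (edgeR adjusted p = 0.0696), with differences of -1.23, -0.95 and -0.52 in numbers 1, 2 and 3. Against netrin-1 WT it was -0.66 ± 0.25 (adjusted p = 0.247) and against control -0.49 ± 0.25 (adjusted p = 0.308); the control differences were -1.06, -0.80 and 0.45 in numbers 1, 2 and 3, so number 3 ran the other way. DESeq2 with the replicate block called Zic2 for neo1 MUT against unc5B MUT (-0.86, adjusted p = 0.0133), and the authors' deposited table does so too (-0.997, adjusted p = 0.0225; 6.36% of its genes). With numbers 1 and 2 alone, the paired edgeR fit called it against all 3 groups: -1.08 against unc5B MUT (adjusted p = 0.00539), -1.03 against netrin-1 WT (0.0124; 2.95% of all genes) and -0.93 against control (0.00860). Without the block it was called there against unc5B MUT (-1.07, adjusted p = 0.0322; 2.32% of all genes) and control (-0.92, adjusted p = 0.0496; 2.76%).

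Zic5 showed smaller differences from its neighbour's libraries. It was at 33.8, 42.8 and 43.5 CPM in neo1 MUT, against 36.2, 57.2 and 33.5 CPM in control. In unc5B MUT it was 43.6, 54.8 and 41.2 CPM, and in netrin-1 WT 42.6, 52.3 and 28.1 CPM. All 4 groups overlapped, and the paired log2 fold change for neo1 MUT against control was -0.04 ± 0.18 (edgeR adjusted p = 0.936). The ratio of Zic2 to Zic5 CPM was 0.617, 0.706 and 0.350 in neo1 MUT libraries 1, 2 and 3. It was 1.12, 1.07 and 0.530 in unc5B MUT, 1.23, 0.943 and 0.525 in netrin-1 WT and 1.20, 0.918 and 0.332 in control. In numbers 1 and 2 the neo1 MUT ratio lay below that of the other 3 groups, and in number 3 it lay between control and netrin-1 WT.

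**Figure D3:**
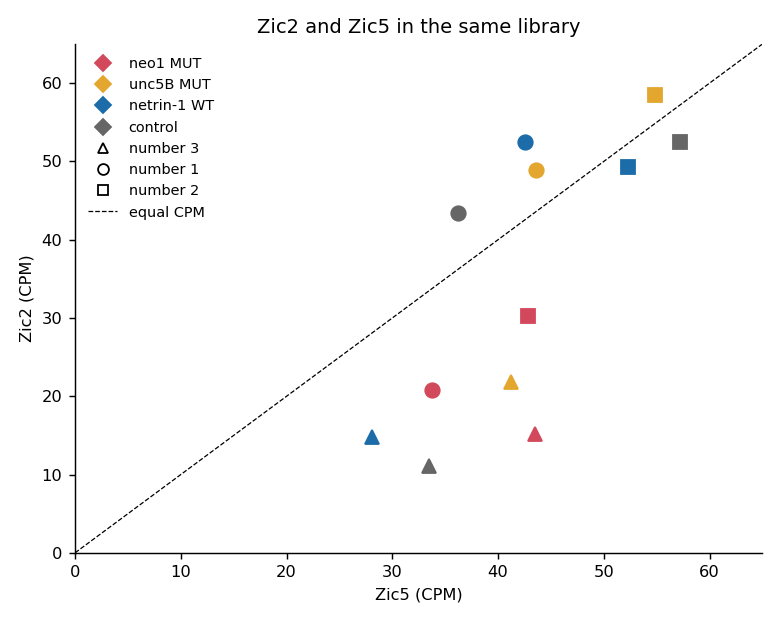
Zic2 CPM against Zic5 CPM in the 12 libraries, coloured by group, with triangles for number 3, circles for number 1 and squares for number 2; the dashed line marks equal CPM. The number 3 libraries of all groups and both other neo1 MUT libraries lie well below the line.

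Sall2, a zinc-finger factor of the SALL family, Grhl2, a grainyhead factor that opens epithelial enhancers in the formative state, and Tead2, a DNA-binding partner of the Hippo effector Yap, were not called by edgeR in the 6 group comparisons. Sall2 was at 5.92, 9.34 and 4.98 CPM in neo1 MUT, against 5.05, 6.41 and 0.949 CPM in control. Its paired log2 fold change was 0.99 ± 0.39 (edgeR adjusted p = 0.181), and the largest within-number difference, 2.33, was in number 3. In unc5B MUT it was 5.90, 8.47 and 2.55 CPM and in netrin-1 WT 8.32, 7.48 and 1.36 CPM, so that both overlapped control.

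Grhl2 was at 8.54, 11.5 and 21.3 CPM in netrin-1 WT, against 7.30, 11.001 and 8.99 CPM in control. The paired log2 fold change was 0.58 ± 0.31 (edgeR adjusted p = 0.355), and the netrin-1 WT library numbered 3 stood alone above the other 11. In unc5B MUT it was 9.18, 10.6 and 6.74 CPM, and in neo1 MUT 8.20, 14.0 and 8.66 CPM. Tead2 ranged from 112 to 317 CPM in netrin-1 WT, 118 to 326 CPM in unc5B MUT, 83.5 to 414 CPM in neo1 MUT and 88.9 to 424 CPM in control, with number 3 the highest library in every group. Its paired log2 fold changes against control lay between -0.02 and 0.15. Tead2 and the opposite-strand gene Cd37 overlap by 13 bases at the Tead2 end, and whether counting used strand is not stated in the labels.

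Fgf5 was at the edge of detection. Its rounded counts were 3, 2 and 2 in netrin-1 WT libraries 1, 2 and 3, 6, 2 and 0 in unc5B MUT, 12, 0 and 1 in neo1 MUT and 14, 3 and 0 in control. These are at most 0.310 CPM, and a count of 0 allows up to 0.168 CPM in the shallowest of the 3 libraries that had none (3 counts; counting error only). The most counts in every group were in library 1, and no difference between groups was detectable at this depth. The authors' deposited table does not list the gene.

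Within numbers, most differences of the 9 genes from control were upward. For neo1 MUT against control 5 of 9 were higher in all 3 numbers (19.9% of all genes) and 0 of 9 lower (18.8%); the 5 were Otx2, Pou3f1, Sall2, Sox3 and Sfrp2. For unc5B MUT against control it was 5 of 9 higher (15.9%) and 0 lower (14.6%), and for netrin-1 WT against control 4 of 9 higher (17%) and 0 lower (16.3%). The median paired log2 fold change of the 9 was 0.56 for neo1 MUT, 0.17 for unc5B MUT and 0.21 for netrin-1 WT against control, beside medians of 0.02, 0.02 and 0.01 over all tested genes. These comparisons share the control libraries, so that a low control value raises the difference in all of them.

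A further 15 genes of the formative and primed states, all tested, held calls only in the paired fit. Lin28b, an RNA-binding protein that blocks let-7 maturation, rose in neo1 MUT, at 30.3, 31.5 and 19.0 CPM in libraries 1, 2 and 3, against 12.5, 14.5 and 9.38 CPM in control. It was at 13.7, 16.8 and 7.12 CPM in unc5B MUT and 14.3, 12.99 and 5.86 CPM in netrin-1 WT, so that every neo1 MUT library lay above all others. The paired log2 fold change was 1.14 ± 0.18 against control (edgeR adjusted p = 0.00789), 1.33 ± 0.18 against netrin-1 WT (0.00498) and 1.14 ± 0.18 against unc5B MUT (0.00860). Without control library 1 the first was at adjusted p = 0.0560, and without unc5B MUT library 1 the last was at 0.0788; the call against netrin-1 WT held whichever single library was left out.

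Both DNA methyltransferases of this list had calls. Dnmt3b, which writes new methylation in the epiblast, was at 146, 162 and 102 CPM in neo1 MUT, against 242, 245 and 144 CPM in control, and fell by 0.61 ± 0.13 on the log2 scale in the paired fit (edgeR adjusted p = 0.0210). In neo1 MUT it was lower than in unc5B MUT as well, with a paired log2 fold change of -0.67 ± 0.13 (adjusted p = 0.0172). Mean Dnmt3b was 155 ± 33.6 CPM in netrin-1 WT, where it was not called against control, and 137 ± 30.9 CPM in neo1 MUT (SD, n = 3 each). Dnmt3a fell in netrin-1 WT, at 218, 217 and 241 CPM, against 307, 394 and 355 CPM in control (-0.64 ± 0.13, adjusted p = 0.0242), and was higher in unc5B MUT than in netrin-1 WT (0.61 ± 0.13, adjusted p = 0.0415). Each of these 4 calls was lost when any of 3 to 8 single libraries was left out, with adjusted p up to 0.107 and 0.0890 for Dnmt3b and up to 0.127 and 0.197 for Dnmt3a. In all, the list had 1 gene higher and 1 lower of 15 for neo1 MUT against control (5.26% of all genes called). It had 1 lower for netrin-1 WT against control (3.5%) and none for unc5B MUT against control (0.0285%). Without the replicate number none was called in any comparison.

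Naive pluripotency genes, a list of 14, gave 1 lower and none higher for neo1 MUT against control in the paired fit (5.26% of all genes called). For netrin-1 WT against control they gave 2 higher and none lower in that fit (3.5% of all genes). Tbx3, a T-box factor of the naive network, was at 62.0, 49.4 and 87.0 CPM in neo1 MUT, against 153, 107 and 150 CPM in control, and its log2 fold change was -1.09 ± 0.23 (edgeR adjusted p = 0.0238). The genes that rose in netrin-1 WT were Dppa3, a maternal and naive-state factor (2.24 ± 0.36, adjusted p = 0.00784), and Tcl1, an activator of AKT (0.60 ± 0.11, adjusted p = 0.0188). The other naive factors, Nanog, Esrrb and Zfp42 among them, were not called in these comparisons, and without the replicate number edgeR called none of the 14 in them.

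Of 12 genes of the FGF and ERK response, the paired fit called 3 lower for neo1 MUT against control (5.26% of all genes called). They were the receptor gene Fgfr2 (-1.71 ± 0.33, edgeR adjusted p = 0.0152), the feedback inhibitor Spry2 (-0.72 ± 0.13, adjusted p = 0.0115) and the ETS factor Etv1 (-0.74 ± 0.19, adjusted p = 0.0455). For netrin-1 WT against control (3.5% of all genes) the paired fit called Fgfr2 (-2.31 ± 0.34, adjusted p = 0.00498) and Spry2 (-0.56 ± 0.13, adjusted p = 0.0384) lower and Spry1 higher (1.004 ± 0.156, adjusted p = 0.00677). Etv1 was not called there. Its mean was 25.8 ± 4.40 CPM in netrin-1 WT, 24.0 ± 5.76 CPM in neo1 MUT and 39.7 ± 4.04 CPM in control (SD, n = 3 each). None was called for unc5B MUT against control, and none of the 12 was called by edgeR against control without the replicate number. Without control library 1 alone, every call against control named for the other formative, naive, and FGF and ERK lists was lost, except Fgfr2 and Spry1 for netrin-1 WT. The Spry1 call was lost without netrin-1 WT library 2 (adjusted p = 0.0545), and Fgfr2 for netrin-1 WT held whichever single library was left out.

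Markers of other cell types moved in the same comparisons. All 10 primitive endoderm markers fell in the paired fit for netrin-1 WT (3.5% of all genes called) and for neo1 MUT (5.26%) against control. Their summed level was 298 to 743 CPM in netrin-1 WT, 292 to 594 CPM in neo1 MUT and 702 to 2048 CPM in unc5B MUT, against 1159 to 2685 CPM in control. Without the replicate number, edgeR called 5 of the 10 lower for netrin-1 WT (0.0997% of all genes) and 4 of the 10 for neo1 MUT (0.128%). None of the 10 was at 0 in all libraries. Otx2 was at 4.60 to 26.4 CPM in netrin-1 WT and 30.0 to 36.5 CPM in neo1 MUT, and a link between Otx2 and this sum was not tested. Of 10 neuroectoderm markers 5 were tested, and Pax6 rose in neo1 MUT against control in the paired fit (1.54 ± 0.38, edgeR adjusted p = 0.0433), a call lost without any of 10 single libraries. Pax6 did not stand for its list, as the median paired log2 fold change of the 5 was -0.21. Of 8 mesendoderm markers 7 were tested, and Foxa2, which endoderm also expresses, fell in netrin-1 WT and in neo1 MUT against control. The median paired log2 fold change of the 7 was 0.15 for netrin-1 WT and -1.01 for neo1 MUT. T, Mixl1, Gsc, Lhx1 and Mesp1 averaged only 0.19 to 0.41 CPM, so these medians rest largely on genes with few counts. The Foxa2 call was lost without any of 3 single libraries in each comparison (edgeR adjusted p up to 0.067 for netrin-1 WT and 0.0695 for neo1 MUT). Of 8 fibroblast and feeder markers 4 were tested, and Thy1 fell in neo1 MUT against control (-1.30 ± 0.28, edgeR adjusted p = 0.0253), a call lost without any of the 6 libraries compared (up to 0.103). The sum of the list was 4.92 to 7.87 CPM in neo1 MUT, against 9.40 to 18.9 CPM in control. Of the 6 embryonic stem cell markers, Sox2 rose in netrin-1 WT (0.75 ± 0.14, edgeR adjusted p = 0.0144), a call lost without any of 4 single libraries (up to 0.0835). None of Pax6, Foxa2, Thy1 and Sox2 was called by edgeR without the replicate number. In bulk RNA, fewer cells of a type and less RNA per cell cannot be told apart. The part of these markers in the values of the formative genes was not tested.

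The libraries numbered 3 differed from those numbered 1 and 2 for most genes of the table. In number 3 against numbers 1 and 2, 5 of 9 genes were called in the paired edgeR fit, where 62.8% of all tested genes were as well, so the share of the members is near the background. Sox3 was the furthest, at 0.425 CPM on average in number 3 and 4.12 CPM in numbers 1 and 2, a log2 fold change of -3.26 ± 0.29 (adjusted p = 3.4e-06). Pou3f1 averaged 3.27 CPM in number 3 and 10.3 CPM in numbers 1 and 2 (-1.67 ± 0.16, adjusted p = 6.0e-06). Zic2 (-1.45 ± 0.20, adjusted p = 8.8e-05) and Sall2 (-1.66 ± 0.32, adjusted p = 0.000943) were lower in number 3 too.

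Tead2 was higher, at 370 CPM in number 3 and 119 CPM in numbers 1 and 2 (1.63 ± 0.17, edgeR adjusted p = 1.3e-05). Cd37, which overlaps the Tead2 end, was higher too (1.03 ± 0.18, edgeR adjusted p = 0.000497). The part of Cd37 reads in the Tead2 values was not tested. Otx2 (-0.69 ± 0.31, adjusted p = 0.0686), Zic5 (-0.30 ± 0.14, adjusted p = 0.0759), Sfrp2 (0.38 ± 0.23, adjusted p = 0.166) and Grhl2 (0.11 ± 0.24, adjusted p = 0.703) did not pass. Zic2 passed and its neighbour Zic5 did not, and the difference between the neighbours was not tested. Of the other 15 formative and primed genes 9 were lower and 2 higher in number 3, beside 31% and 31.8% of all genes, and of the 14 naive genes 6 were lower and 3 higher. What a replicate number stands for is not stated in the labels, and all number 3 libraries were also the shallowest, so number and depth cannot be told apart. Ntn1 was lowest in number 3 of every group too, and its level cannot be told apart from the number either.

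**Figure D4:**
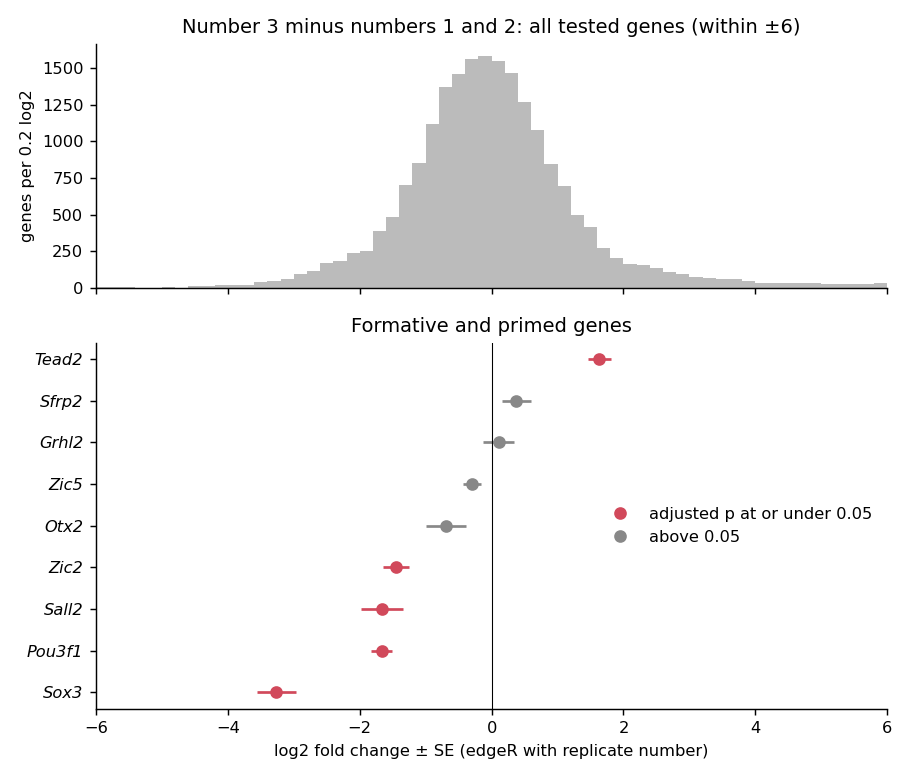
Upper panel, the number of tested genes by log2 fold change of number 3 over numbers 1 and 2, within ±6; lower panel, the 9 formative and primed genes on the same scale with standard errors, in red where the adjusted p was at or under 0.05. Sox3, Pou3f1, Sall2 and Zic2 lie below -1 and Tead2 above 1.

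The genes most like each leading member were taken from 12457 candidates by Pearson r of log2 CPM over the 12 libraries, after each number's mean was taken away. Otx2 was most like Usf2, a basic helix-loop-helix factor (r = 0.975), Tdg, a DNA glycosylase (0.963), and Mcl1, an inhibitor of apoptosis (0.962). For Pou3f1 they were Ccna1, a germline cyclin (0.968), Zscan4f (0.966) and Epb41l3, a membrane-skeleton protein (0.961). Zscan4f belongs to a family of near-identical copies, whose reads the counting could divide between them. It was at 18.0, 16.4 and 10.9 CPM in netrin-1 WT libraries 1, 2 and 3, against 3.92, 3.52 and 1.12 CPM in control. In neo1 MUT it was 21.9, 19.7 and 1.94 CPM, and in unc5B MUT 4.29, 6.58 and 1.41 CPM. Fgf5 had Tex11 (0.915) as its nearest, from counts too few to read. These are the highest of many correlations over libraries that share depth and scaling.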

How the data were processed

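The file used holds estimated counts per Ensembl gene, as the authors deposited them; their program and strand setting are not given in the sources used here. Per the submitters' processing notes, the tools were DESeq2, R 3.3.2, STAR 2.5.2b, FastQC 0.11.5, Bowtie2 and Bowtie, and the builds mm10, GRCm38.p5 and GRCh38. The authors' deposited table gives, per the file headers, log2 fold changes and p-values for 20347 genes from a model that they do not describe.

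The design had assumed whole counts, so estimated counts were rounded. All 12 libraries entered 1 edgeR 4.0.16 fit (R 4.3.3, limma 3.58.1, and the data.table package, version 1.17.8; TMM, filterByExpr), with the group as its term; 21053 genes were tested. CPM values use TMM library sizes, and depth of 22256195 to 59735737 counts limits low genes. GENCODE M21 (GRCm38) gave coordinates. Standard errors are the log2 fold change over the root of F.

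Replicate numbers come from the sample titles. Same-numbered libraries deviated together from group means (correlations of 0.58 to 0.88, above the minimum of 0.1), as did numbers 1 and 2 (0.49 to 0.76), while number 3 ran against both (-0.83 to -0.60). Each group of 3 was centred on its mean, so an outlying number 3 by itself gives these signs. The correlations set number 3 apart but do not separate numbers 1 and 2. The paired fit adds the number as a block.

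The members and lists were chosen with earlier results of these data known. The rule set beforehand was to name all 10 members in each comparison, and of other lists up to 4 called genes by smallest p. The text follows it in part. Member values between the netrin-1 groups are not all given. Calls of the naive, FGF and ERK, and cell type lists are described against control only, with primitive endoderm as a count. Nanog, Esrrb and Zfp42 are named outside this rule as genes without a call. Alternatives were RLE size factors, 2 other filters, limma-voom, DESeq2 1.42.0, pairs of groups alone, and leaving out each library; numbers 1 and 2 alone was added after the data were seen. The log2 CPM used in correlations has a prior count of 2.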

Additional observations from a re-analysis of the deposited data

How the results depend on the processing

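The count of 0 called members held in all 6 comparisons under RLE size factors, both other filters, the 2 groups compared alone, limma-voom, DESeq2 and the replicate block, and when any single library was left out of the fit without the block. DESeq2 with the replicate block called 1 for netrin-1 WT against control, 2 for neo1 MUT against control, 1 for neo1 MUT against netrin-1 WT and 1 for neo1 MUT against unc5B MUT. With numbers 1 and 2 alone, chosen after the data were seen, 1 was called for neo1 MUT against control (2.76% of all genes) and 1 against unc5B MUT (2.32%) without the block. With the replicate block there, the counts were 1 for netrin-1 WT against control (16.3% of all genes), 2 for neo1 MUT against control (10.5%), 1 against netrin-1 WT (2.95%) and 2 against unc5B MUT (10%). In the paired fit without 1 library, counts ran from 0 to 2 for neo1 MUT against control and from 0 to 2 against unc5B MUT. The 2 for neo1 MUT against control came without netrin-1 WT library 3, where 8.65% of all genes were called. Against unc5B MUT it was 2 without that library (9.23%), and 1 without control library 3 (6.48%) or neo1 MUT library 3 (1.94%).

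For number 3 against numbers 1 and 2, edgeR called 5 to 7 of 9 members without 1 library, where 54.4% to 60.6% of all genes were called. It called 7 of 10 with no filter beyond 1 count (36.5%) and 6 of 9 at 1 CPM or more in 3 libraries (67.4%). DESeq2 called 6 of 10 (47.6% of the 28861 genes that it gave an adjusted p).

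Signs of values that did not pass changed with 1 library. Listed first are genes that had the same sign in every replicate number of the comparison. Against control, log2 fold changes ran from -0.0035 to 0.92 for Sall2 in netrin-1 WT. In unc5B MUT they ran from -0.12 to 0.63 for Pou3f1, -0.16 to 0.66 for Zic2, -0.018 to 0.91 for Sall2 and -0.16 to 0.34 for Sfrp2 (-0.022 to 0.22 with the block). Sox3 in neo1 MUT ran from -0.36 to 1.15. Zic5 for unc5B MUT against netrin-1 WT ran from -0.022 to 0.40. For neo1 MUT against unc5B MUT, Pou3f1 ran from -0.013 to 0.78, Sox3 from -0.61 to 1.21 and Sall2 from -0.092 to 0.67 (-0.13 to 0.77 with the block). Genes whose sign differed between replicate numbers are not in this list, and some of them ran over wide ranges too. Against control without the block, Tead2 ran from -0.72 to 1.08 in neo1 MUT and from -0.79 to 0.83 in netrin-1 WT. Otx2 ran from -0.39 to 0.61 in netrin-1 WT, and Sox3 from -0.60 to 0.79 in unc5B MUT. These are examples only. The cause of the sign changes was not tested.

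With 3 libraries a group, and number 3 at no more than 24736421 counts, members with few counts have the least precision.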
